A study of Mus musculus with 6 samples.

Results

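The genes of pyrimidine synthesis, salvage and breakdown were examined in aged mouse haematopoietic stem and progenitor cells (HSPCs) given uridine. They are 38 genes chosen by symbol, out of 54532 in the deposited count table. By role they were divided into 4 genes of salvage, 5 of new synthesis, 8 of phosphate transfer, 11 of deoxynucleotide supply and 10 of breakdown. Messenger RNA was sequenced from 3 libraries of uridine-treated and 3 libraries of vehicle-treated cells. All 6 came from bone marrow of wild-type C57BL/6 mice, the labelled cell type was aged HSPC in both groups, and the extraction protocol speaks of cultured cells. The labels give no dose, duration, age, sex or sorting markers, and they do not say whether the 3 replicates of a group came from separate cultures or mice. The p-values therefore reflect the scatter of these 6 samples alone, part or all of which could be technical. The study's title names uridine as a factor in blood ageing, and the comparison made here asks how the enzymes that handle uridine and its products differed between cells with and without it.

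Uridine that enters a cell is phosphorylated to UMP by uridine-cytidine kinases, which is the salvage route, while the new synthesis route builds UMP from small precursors through CAD, DHODH and UMPS. UMP is carried up to UTP and CTP by kinases and CTP synthases, and ribonucleotide reductase and thymidylate synthase turn part of the pool into the pyrimidine precursors of DNA. Nucleotidases and phosphorylases run the pathway backwards to free bases, which the liver in particular degrades further to small amino acids.

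Most of the pathway was expressed, and the differences between the groups were small. Of the 38 genes, 33 had enough counts to be tested, and 3 of these rose with uridine, 3 fell and 27 were not called at an adjusted p of 0.05 in edgeR's quasi-likelihood test. *Dctpp1*, *Uckl1* and *Nt5c3* rose, and *Rrm2*, *Dck* and *Cad* fell. The size of the 6 changes ran from -12.3% for *Rrm2* to 16.9% for *Dctpp1*. The main kinase of the salvage route, *Uck2*, was not called, and neither were the genes of the phosphate transfer step. The last enzymes of the breakdown route were at or near a count of 0 in both groups.

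The share of tested pyrimidine genes called, 18.2%, was close to the background, since 17.3% of all 14706 tested genes were called. The same holds by direction, with 9.09% of the pyrimidine genes higher against 7.18% of all genes, and 9.09% lower against 10.1% of all genes. The 3 uridine libraries did not overlap with the 3 vehicle libraries for 13 of the 33 genes, or 39.4%, against 30.8% of all genes. Over all genes 1056 were higher and 1488 lower, and the split turned to 1425 higher and 1059 lower after a trend with gene length was removed from each library. The median log2 fold change of uridine over vehicle was 0.046 over the 33 genes and 0.0053 over all genes. Above 0 were 22 of the 33, or 66.7%, against 51.4% of all genes. The median size of the log2 change, without its sign, was 0.088 for the pyrimidine genes and 0.11 for all genes. For 29 of the 33 genes the 95% interval of the change lay inside 1.5-fold in either direction, against 71.4% of all genes, and for all 33 it lay inside 2-fold. In bulk libraries such as these, fewer cells of a type and less RNA per cell cannot be told apart.

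**Figure D1:**
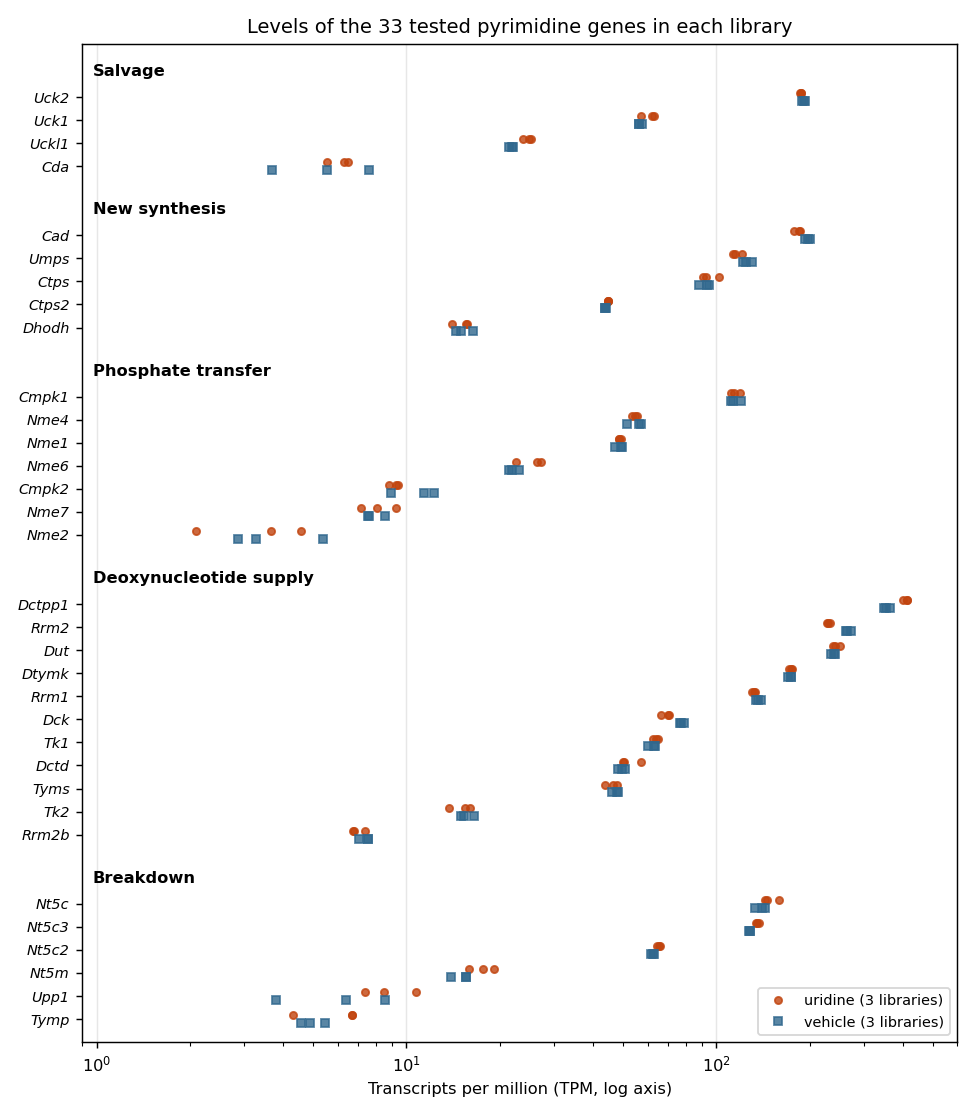
Level of each of the 33 tested pyrimidine genes in the 3 uridine libraries (circles) and the 3 vehicle libraries (squares), in TPM (a share of the counts corrected for gene length) on a log axis, grouped by role. *Dctpp1* stood highest, with means of 408 TPM in uridine libraries and 354 TPM in vehicle libraries, and circles and squares lay close together for most genes. The order of genes depends on the deposited gene lengths.

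The depth was even, with 16109265 to 18638627 counts in the uridine libraries and 17449008 to 18037717 in the vehicle libraries. The detection floor, set at 3 counts, was 0.161 to 0.186 CPM (a gene's scaled share of all counts) and covers counting error only. The stem and progenitor markers *Kit* and *Cd34* were abundant in both groups, at 383 and 618 CPM in uridine libraries and 365 and 620.1 CPM in vehicle libraries. Beside the counts of markers that follow, 7.18% of all tested genes rose and 10.1% fell. Of the 14 stem and progenitor markers, all tested, 7 rose, 3 fell and 4 were not called, with log2 changes from -2.10 to 0.43. Their summed level was 2330 to 2406 CPM in uridine libraries and 2292 to 2298 CPM in vehicle libraries. Of 15 lymphoid markers 7 were tested and 1 fell, and *Cd3e* and *Cd3g* of T cells were near 0. Of 12 erythroid markers 5 were tested and 3 rose, *Epor*, *Gata1* and *Car2*, with a summed level of 409 to 418 CPM in uridine libraries and 325 to 341 CPM in vehicle libraries. The near-identical alpha-globin genes *Hba-a1* and *Hba-a2* were listed at 0, which depends on how reads with several positions were counted, while *Hbb-bt* had 24 to 72 counts with uridine and 21 to 80 with vehicle. Of 9 megakaryocyte markers 8 were tested, 4 rose and 2 fell. Their summed level was 3129 to 3180 CPM in uridine libraries and 2878 to 2933 CPM in vehicle libraries. Of 11 mast cell and basophil markers 10 were tested, 5 rose and 2 fell. Their summed level was 446 to 476 CPM in uridine libraries and 412 to 417 CPM in vehicle libraries. Most tested monocyte and neutrophil markers fell with uridine. Of 16 monocyte and macrophage markers, 14 of them tested, 13 fell with uridine, with a summed level of 291 to 295 CPM in uridine libraries and 667 to 688 CPM in vehicle libraries, while *Ms4a7* was near 0 in both. Of 16 neutrophil markers, 14 of them tested, 12 fell and *Ltf* rose, with a summed level of 1644 to 1682 CPM in uridine libraries and 2993 to 3057 CPM in vehicle libraries, while *Mmp9* and *Retnlg* were near 0 in both. The part of these cell types in the changes of the pyrimidine genes was not tested.

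**Figure D2:**
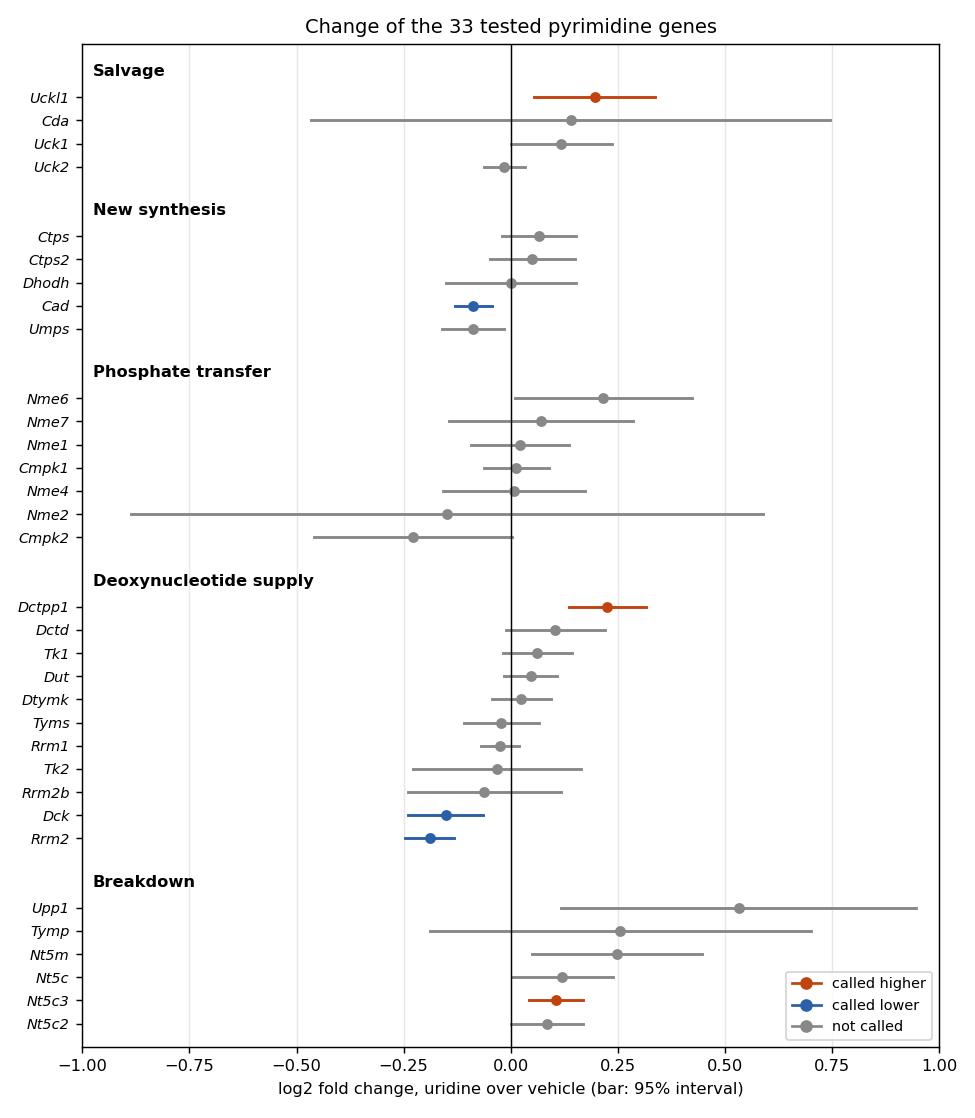
Fold change of each of the 33 tested genes on a log2 scale, uridine over vehicle, with bars for the 95% interval, grouped by role and coloured by call. The 6 called genes are *Uckl1*, *Dctpp1* and *Nt5c3* to the right of 0 and *Cad*, *Dck* and *Rrm2* to the left, and all 6 tested genes of breakdown lie to the right of 0.

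Salvage held the enzyme that acts first on the added nucleoside. Of its 4 genes, *Uckl1* rose and 3 were not called, and the median log2 fold change was 0.13. *Uck2* encodes the more active of the uridine-cytidine kinases and lies on chromosome 1 of GRCm38. It had 310.1, 312 and 312 CPM in the uridine libraries, against 318, 312 and 315 CPM in the vehicle libraries. The groups overlapped, and the log2 fold change was -0.015 ± 0.024 (SE, n = 3 each, adjusted p = 0.762). Its 95% interval ran from -4.30% to 2.38%.

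*Uck1*, the second uridine-cytidine kinase, had 47.9, 53.03 and 52.1 CPM with uridine, against 46.6, 47.8 and 46.6 CPM with vehicle. All 3 uridine libraries lay above the vehicle libraries, the nearest by a narrow gap, and the change of 0.12 ± 0.059 on the log2 scale was not called (adjusted p = 0.174). *Uckl1*, a homologue of these kinases, had 35.3, 35.6 and 33.5 CPM in uridine libraries, against 30.5, 29.9 and 30.7 CPM in vehicle libraries. The groups were apart, and the log2 change was 0.20 ± 0.071 (adjusted p = 0.0428). This call stood close to the threshold and was kept in 7 of 15 alternative analyses, with adjusted p from 0.0203 to 0.138 over the alternatives. It was lost when any library other than uridine replicate 3 was left out. The gene shares 1.45% of its exon bases with *Zfp512b* on the same strand and 9.92% with the antisense transcript *Uckl1os*, and the strand setting of the counting is not given in the sources used here.

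On the TPM scale, which corrects for gene length, *Uck2* held most of the kinase message. It averaged 187 ± 0.805 TPM with uridine and 191 ± 1.80 TPM with vehicle (SD, n = 3 each). *Uck1* averaged 60.7 ± 3.31 TPM with uridine and 56.8 ± 0.838 TPM with vehicle. *Uckl1* averaged 24.6 ± 0.793 TPM with uridine and 21.8 ± 0.288 TPM with vehicle. The order of the 3 genes was the same in every library. The share of *Uck2* in their summed TPM was 68.6% ± 0.745 in uridine libraries and 70.9% ± 0.351 in vehicle libraries, without overlap. The exact two-sided permutation test gave p = 0.1, the smallest that 3 against 3 libraries allow. This share rests on the same counts as the tests above and is not separate evidence.

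*Cda*, cytidine deaminase, which turns cytidine into uridine, was scarce. It had 1.75, 1.98 and 2.05 CPM with uridine, against 1.15, 2.36 and 1.73 CPM with vehicle. The vehicle libraries spanned all uridine libraries, and the log2 change of 0.14 ± 0.30 has an interval from -27.6% to 67.6%, so that a moderate change was not detectable at this depth (adjusted p = 0.827).

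New synthesis differed in its first enzyme. *Cad* fell, the other 4 genes were not called, and the median log2 change of the 5 was 0.00085. *Cad* lies at chr5:31054780-31078479 on the plus strand and encodes the multifunctional protein that starts the pathway. It had 444, 460.5 and 466 CPM with uridine, against 476, 486 and 494 CPM with vehicle. The uridine libraries were all lower, and the log2 change was -0.088 ± 0.022 (adjusted p = 0.0019), or -5.89%. With the length trend removed, the log2 change of *Cad* was -0.035 and the call was lost (adjusted p = 0.298).

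*Umps*, which completes UMP, had 121, 128 and 122 CPM in uridine libraries, against 128, 131 and 136 CPM in vehicle libraries. Its highest uridine library lay just above its lowest vehicle library, and the log2 change of -0.088 ± 0.036, equal in size to that of *Cad*, was not called (adjusted p = 0.084). Without uridine replicate 2 it was called, at -0.12 (adjusted p = 0.0446), while without the other libraries in turn it was not called, with log2 changes from -0.11 to -0.063 and a highest adjusted p of 0.37 without vehicle replicate 3. *Dhodh*, the mitochondrial enzyme between CAD and UMPS, had 30.1, 27.2 and 30.3 CPM with uridine, against 31.3, 28.7 and 27.5 CPM with vehicle. The groups overlapped fully, with a log2 change of 0.00085 ± 0.076 (adjusted p = 0.996).

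*Ctps*, a CTP synthase, had 94.1, 91.6 and 103 CPM with uridine, against 93.3, 87.9 and 94.5 CPM with vehicle. The groups overlapped (log2 change 0.066 ± 0.043, adjusted p = 0.336). The second CTP synthase, *Ctps2*, averaged 64.5 ± 0.15 CPM with uridine and 62.3 ± 0.0453 CPM with vehicle. Its groups did not overlap, but the log2 change of 0.050 ± 0.050 was not called (adjusted p = 0.573). *Ctps* made up 68.0% ± 1.37 of the TPM of the 2 synthases with uridine and 67.7% ± 0.835 with vehicle (exact two-sided permutation p = 0.8). Summed over the 5 genes, new synthesis stood at 754 to 786 CPM in uridine libraries and 791 to 814 CPM in vehicle libraries. The sums did not overlap. They include *Cad*, at means of 457 CPM with uridine and 485 CPM with vehicle, whose call was lost with the length trend removed. The part of that trend in the sums was not tested. On the TPM scale *Cad* also carried more than any other gene of the group. It held 40.3% ± 0.305 of the summed TPM with uridine and 41.6% ± 0.462 with vehicle.

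Phosphate transfer from UMP to UTP showed no called gene among 7 tested by edgeR, DESeq2 or limma-voom, and *Nme6* alone had an unadjusted edgeR p under 0.05. Log2 changes ran from -0.23 to 0.22, with a median of 0.013. *Cmpk1*, the cytosolic UMP-CMP kinase, was the most abundant of them, with 115 ± 3.99 TPM in uridine libraries and 115 ± 4.48 TPM in vehicle libraries. *Nme4*, the mitochondrial nucleoside diphosphate kinase, had 54.4 ± 1.03 TPM with uridine and 54.9 ± 3.11 TPM with vehicle. *Nme1*, a cytosolic member of the same family, had 48.8 ± 0.541 TPM with uridine and 48.7 ± 1.26 TPM with vehicle. The spread of each of these 3 genes was wider than the difference of its means. *Nme6* and *Nme7*, further members of the family, were not called either (adjusted p = 0.152 and 0.737).

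*Cmpk2*, a mitochondrial kinase that interferon induces, had 11.2, 11.7 and 11.97 CPM with uridine, against 14.3, 11.2 and 15.4 CPM with vehicle. Vehicle replicate 2 lay level with the uridine libraries and the other vehicle libraries lay above them. The log2 change was -0.23 ± 0.12 (adjusted p = 0.184), and without vehicle replicate 2 it was -0.35 and called (adjusted p = 0.0406). Without vehicle replicate 3 it was -0.13 and not called (adjusted p = 0.596). Of 20 other interferon-stimulated genes 8 fell, or 40%, beside 10.1% of all tested genes. The median log2 change of the 20 was -0.54. Those that fell included *Oas3*, *Oas2* and *Dhx58*, which sense or answer viral RNA, and the chemokine *Cxcl10*. The summed level of the 20 genes was 261 to 278 CPM with uridine and 309 to 313 CPM with vehicle. The part of this group of genes in the values of *Cmpk2* was not tested.

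Counts of some nucleoside diphosphate kinases are uncertain. *Nme2* was listed with 14 to 28 counts in uridine libraries and 18 to 34 in vehicle libraries, and 48.9% of its exon bases are shared on the same strand with the readthrough gene *Gm20390*, which was listed at 0 in all libraries. *Nme1* shares 12.5% with the same gene, and how reads in such shared stretches were counted is not given in the sources used here. *Nme3* was listed at 0 in all 6 libraries, and 87.1% of its exon bases are shared on the same strand with *Mrps34*. No level of *Nme2* or *Nme3* can be read from these counts.

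**Figure D3:**
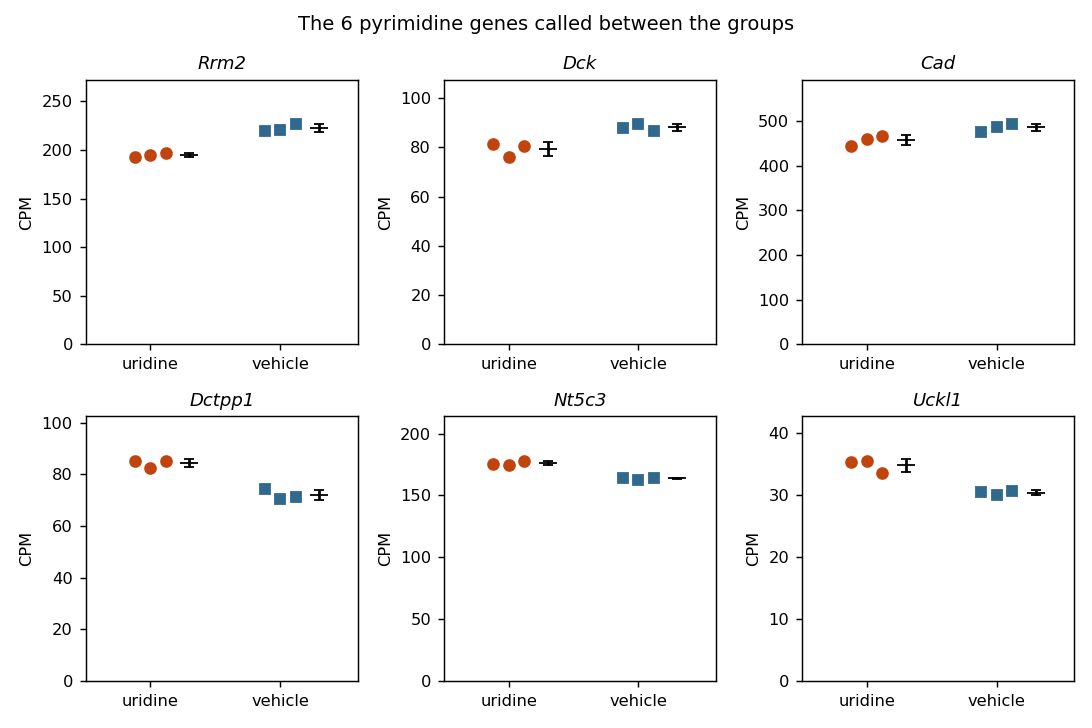
CPM of the 6 called pyrimidine genes in each library, uridine (circles) and vehicle (squares), with mean ± SD (n = 3 each) beside the points and axes that start at 0. *Rrm2*, *Dck* and *Cad* lie lower and *Dctpp1*, *Nt5c3* and *Uckl1* higher in all 3 uridine libraries than in any vehicle library.

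The smallest adjusted p-values of the pathway, those of *Rrm2* and *Dctpp1*, lay in deoxynucleotide supply. There *Rrm2* and *Dck* fell, *Dctpp1* rose and 8 of 11 genes were not called. The share called was 27.3%, beside 17.3% of all tested genes. The 8 had log2 changes from -0.062 to 0.10. Ribonucleotide reductase consists of the large subunit *Rrm1* and a small subunit, either *Rrm2*, which dividing cells make in S phase, or *Rrm2b*, which p53 induces. *Rrm2* had 193, 195 and 197 CPM in uridine libraries, against 219, 220.5 and 227 CPM in vehicle libraries. The groups were far apart beside their spread, and the log2 change was -0.19 ± 0.029 (adjusted p = 2.9e-07). It was called in all 15 alternatives, with log2 changes from -0.20 to -0.17 and a highest adjusted p of 2.9e-05.

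*Rrm1* had 439, 449 and 446 CPM with uridine, against 447, 461 and 449 CPM with vehicle. The groups overlapped, and the log2 change of -0.025 ± 0.022 was not called (adjusted p = 0.494), with an interval from -4.64% to 1.26%. With the length trend removed the sign turned, at 0.047, still not called. *Rrm2b* had 19.4 ± 0.966 CPM with uridine and 20.2 ± 0.713 CPM with vehicle and was not called (adjusted p = 0.722).

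The balance of the 2 subunits of the S-phase enzyme can be read within each library. There were 0.439, 0.433 and 0.442 *Rrm2* counts per *Rrm1* count in uridine libraries, against 0.490, 0.478 and 0.505 in vehicle libraries. The groups did not overlap, and the exact two-sided permutation test gave p = 0.1, the smallest possible here. This ratio rests on the same *Rrm2* counts as the test above and is not separate evidence. It does not depend on the scaling between libraries.

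*Dctpp1* lies at chr7:127256959-127260709 on the minus strand and encodes a pyrophosphatase that breaks down dCTP and its modified forms. It had 85.0, 82.4 and 85.3 CPM with uridine, against 74.2, 70.6 and 71.4 CPM with vehicle. All uridine libraries stood above all vehicle libraries, and the log2 change was 0.23 ± 0.045 (adjusted p = 9.0e-05). It was called in all 15 alternatives, and was smallest with the length trend removed, at 0.14 (adjusted p up to 0.0261 over the alternatives). Per deposited length, 676 bases, it had the highest TPM of the 38 genes. That length, like the 11012 bases of *Rrm1*, equals all annotated exon bases, which can exceed the transcript expressed. In CPM *Rrm1* stood higher, at means of 445 with uridine and 453 with vehicle, against 84.3 and 72.1 for *Dctpp1*. The order of genes in TPM therefore depends on these lengths. *Dctpp1* made up 28.3% ± 0.373 of the summed TPM of deoxynucleotide supply with uridine and 24.8% ± 0.579 with vehicle (exact two-sided permutation p = 0.1). This share rests on the same counts as the tests above and is not separate evidence.

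The stretch upstream of the start is shown for *Rrm2*, *Rrm1* and *Dctpp1*, because these are the called genes whose change held in every alternative and the partner subunit of *Rrm2*, which was not called. Each is the 250 bases before the gene's RefSeq start, from GRCm38.p6, read 5′ to 3′ on the gene's own strand, at chr12:24708004-24708253 (plus), chr7:102441445-102441694 (plus) and chr7:127260668-127260917 (minus). Capitals mark the CCAAT motif or its reverse complement ATTGG, searched on both strands, with no overlap between matches.
Rrm2: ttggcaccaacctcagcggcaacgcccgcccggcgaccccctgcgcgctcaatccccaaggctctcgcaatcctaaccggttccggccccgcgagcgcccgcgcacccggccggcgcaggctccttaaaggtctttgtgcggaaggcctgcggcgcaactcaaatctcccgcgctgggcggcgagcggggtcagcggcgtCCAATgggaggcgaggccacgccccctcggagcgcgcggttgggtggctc
Rrm1: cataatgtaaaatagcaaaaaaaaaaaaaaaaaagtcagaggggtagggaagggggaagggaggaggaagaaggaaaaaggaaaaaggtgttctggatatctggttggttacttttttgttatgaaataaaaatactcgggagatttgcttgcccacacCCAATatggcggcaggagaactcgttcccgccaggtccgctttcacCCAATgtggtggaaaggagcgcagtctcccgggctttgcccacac
Dctpp1: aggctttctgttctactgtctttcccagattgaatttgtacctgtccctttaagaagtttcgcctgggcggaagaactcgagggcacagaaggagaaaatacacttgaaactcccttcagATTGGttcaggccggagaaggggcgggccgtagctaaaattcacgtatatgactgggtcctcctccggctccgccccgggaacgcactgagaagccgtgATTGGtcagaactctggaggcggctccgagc

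The motif occurs in all 3 sequences, once for *Rrm2* and at 2 places each for *Rrm1* and *Dctpp1*, so that it does not separate the gene that rose from the one that fell. In windows of 300 bases, from 250 before to 50 after the start, CCAAT was found for 13 of the 35 pyrimidine genes that matched the RefSeq table, and in 37.4% of all 32851 promoters. A match is a description of the letters and not a binding site.

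*Dck*, deoxycytidine kinase, which salvages deoxycytidine, fell. It had 81.3, 76.3 and 80.6 CPM in uridine libraries, against 88.0, 89.6 and 86.8 CPM in vehicle libraries. The groups were apart, with a log2 change of -0.15 ± 0.044 (adjusted p = 0.0086), and the call was lost without uridine replicate 2, the lowest library, at -0.12 (adjusted p = 0.0853). *Tk1*, the thymidine kinase of S phase, had 102, 103 and 99.0 CPM with uridine, against 98.5, 98.9 and 93.7 CPM with vehicle. Its lowest uridine library lay just above its highest vehicle library, and the log2 change of 0.062 ± 0.040 was not called (adjusted p = 0.334). The mitochondrial kinase *Tk2* was not called (adjusted p = 0.878).

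Along the route to dTTP no gene was called by edgeR, DESeq2 or limma-voom, and none had an unadjusted edgeR p under 0.05. *Tyms*, thymidylate synthase, had 81.4, 86.1 and 88.6 CPM with uridine, against 84.8, 88.0 and 87.2 CPM with vehicle. The uridine libraries spanned all vehicle libraries (log2 change -0.022 ± 0.044, adjusted p = 0.805). *Dut*, which turns dUTP into dUMP, averaged 179 ± 4.93 CPM with uridine and 173 ± 2.77 CPM with vehicle (adjusted p = 0.356). *Dctd*, which makes dUMP from dCMP, averaged 54.6 ± 4.40 CPM with uridine and 50.8 ± 1.36 CPM with vehicle (adjusted p = 0.239). *Dtymk*, which phosphorylates dTMP, averaged 139 ± 1.82 CPM with uridine and 137 ± 1.86 CPM with vehicle (adjusted p = 0.708). These genes were well counted, and the 95% interval of each lay inside 1.5-fold.

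Since *Rrm2*, *Tk1* and *Tyms* are made mainly in dividing cells, lists of cell cycle genes are given beside them. Of all tested genes 10.1% fell. The share was 8% in the S phase list, 31.25% in the G2 and mitosis list and 35.7% in the list of p53 targets. Of 25 genes of DNA replication and S phase 2 fell, *Pole*, the polymerase of the leading strand, and *Uhrf1*, which maintains DNA methylation, with a median log2 change of the list of -0.027 and a summed level of 4665 to 4732 CPM with uridine and 4747 to 4814 CPM with vehicle. Of 16 genes of G2 and mitosis 5 fell, while the median of the list was just above 0, at 0.0097, and its summed level was 3695 to 3710 CPM with uridine and 3837 to 3917 CPM with vehicle. They included *Mki67*, a marker of cycling cells, at 891 ± 15.3 CPM with uridine and 1002 ± 25.7 CPM with vehicle (log2 change -0.17 ± 0.018, adjusted p = 7.6e-12), and *Top2a*, a topoisomerase, at 759 ± 12.1 CPM with uridine and 803 ± 10.6 CPM with vehicle (log2 change -0.083 ± 0.018, adjusted p = 0.00038). At 10061 and 9013 bases, *Mki67* and *Top2a* are longer than *Cad*, at 8183, whose call was lost with the length trend removed. Values with that trend removed are given for pyrimidine genes only, and its part in the cell cycle lists was not tested. Of 14 targets of p53 5 fell, while the median log2 change of the list was -0.067 and 5 of the 14 were above 0. Their summed level was 1159 to 1163 CPM with uridine and 1207 to 1234 CPM with vehicle. The largest fall was that of *Pmaip1*, which promotes cell death, at 6.82 ± 0.0684 CPM with uridine and 21.8 ± 0.989 CPM with vehicle (log2 change -1.68 ± 0.11, adjusted p = 3.7e-21). The part of the cell cycle or of p53 in the values of the pyrimidine genes was not tested.

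**Figure D4:**
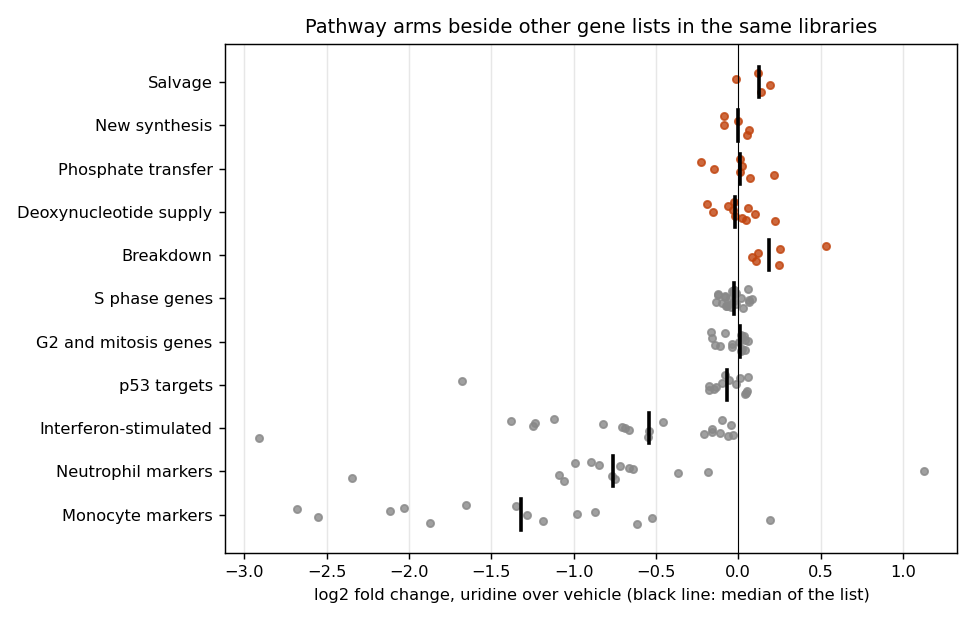
Log2 fold change of each tested gene, uridine over vehicle, for the 5 roles of the pyrimidine pathway (upper rows) and for lists of cell cycle, p53, interferon, neutrophil and monocyte genes (lower rows), with a black line at each median. The medians of the 5 roles lay between -0.022 and 0.18, while those of neutrophil and monocyte markers were -0.76 and -1.32.

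Breakdown was expressed in its first steps. Of 10 genes, 6 were tested, and *Nt5c3* rose while 5 were not called, with log2 changes from 0.085 to 0.53. All 6 were above 0 under every setting tried, and these settings all draw on the same 6 libraries. The 6 include *Tymp*, whose counts are uncertain for the reason given below. In the main fit 51.4% of all genes were above 0, and the median of 0.18 stood beside 0.0053 for all genes. *Nt5c3*, a nucleotidase that removes phosphate from UMP and CMP, lies at chr6:56882400-56923932 on the minus strand. It had 175, 175 and 178 CPM in uridine libraries, against 164, 163 and 164 CPM in vehicle libraries. The groups were tight and apart, with a log2 change of 0.11 ± 0.031 (adjusted p = 0.0101), and the call was kept in 14 of 15 alternatives, with adjusted p = 0.0516 without uridine replicate 3.

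*Nt5c* and *Nt5m*, nucleotidases with a preference for deoxynucleotides, and *Nt5c2*, which prefers purine nucleotides, had higher values in every uridine library than in any vehicle library, and none was called. With *Nt5c3*, 4 of the 6 tested breakdown genes were without overlap, beside 30.8% of all genes. *Nt5c* had 51.9 ± 2.91 CPM with uridine and 47.8 ± 1.69 CPM with vehicle (adjusted p = 0.161). *Nt5c2* had 89.1 ± 0.807 CPM with uridine and 84.1 ± 1.03 CPM with vehicle (adjusted p = 0.178). *Nt5m* had 18.0 ± 1.72 CPM with uridine and 15.2 ± 0.997 CPM with vehicle (adjusted p = 0.0746), and was called without uridine replicate 1 (log2 change 0.32, adjusted p = 0.038). Its log2 change was 0.18 without uridine replicate 3 (adjusted p = 0.326) and 0.19 without vehicle replicate 3 (adjusted p = 0.282).

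*Upp1*, uridine phosphorylase, which splits uridine into uracil and ribose phosphate, was expressed at a low level. It had 5.08, 6.43 and 4.40 CPM with uridine, against 2.25, 3.76 and 5.01 CPM with vehicle. Vehicle replicate 3 lay between uridine libraries, so the groups overlapped, and the log2 change of 0.53 ± 0.21 was not called (adjusted p = 0.0669). This was the largest log2 change among the 33 tested genes in either direction, with an interval from 8.48% to 92.7%. It was called without vehicle replicate 3, at 0.82 (adjusted p = 0.0089), and without uridine replicate 3, at 0.64 (adjusted p = 0.032). It was smaller without vehicle replicate 1, at 0.28 (adjusted p = 0.437), and without uridine replicate 2, at 0.37 (adjusted p = 0.352).

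*Tymp*, thymidine phosphorylase, had 2.68 to 4.16 CPM with uridine and 2.81 to 3.34 CPM with vehicle and was not called (adjusted p = 0.501). It shares 42.0% of its exon bases with *Sco2*, which was listed at 0, so that its counts are uncertain. *Dpyd*, the rate-limiting enzyme of uracil breakdown, was listed at 0 in all 6 libraries. *Dpys*, the next enzyme, had 1, 0 and 2 counts with uridine, against 3, 0 and 0 counts with vehicle. *Upb1*, the last enzyme, had 5, 3 and 8 counts with uridine, against 5, 2 and 2 counts with vehicle. *Upp2*, the second uridine phosphorylase, had 3, 0 and 3 counts with uridine, against 8, 5 and 1 counts with vehicle. These 4 genes were at or near the floor of 3 counts in both groups, and no difference was detectable at this depth.

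**Figure D5:**
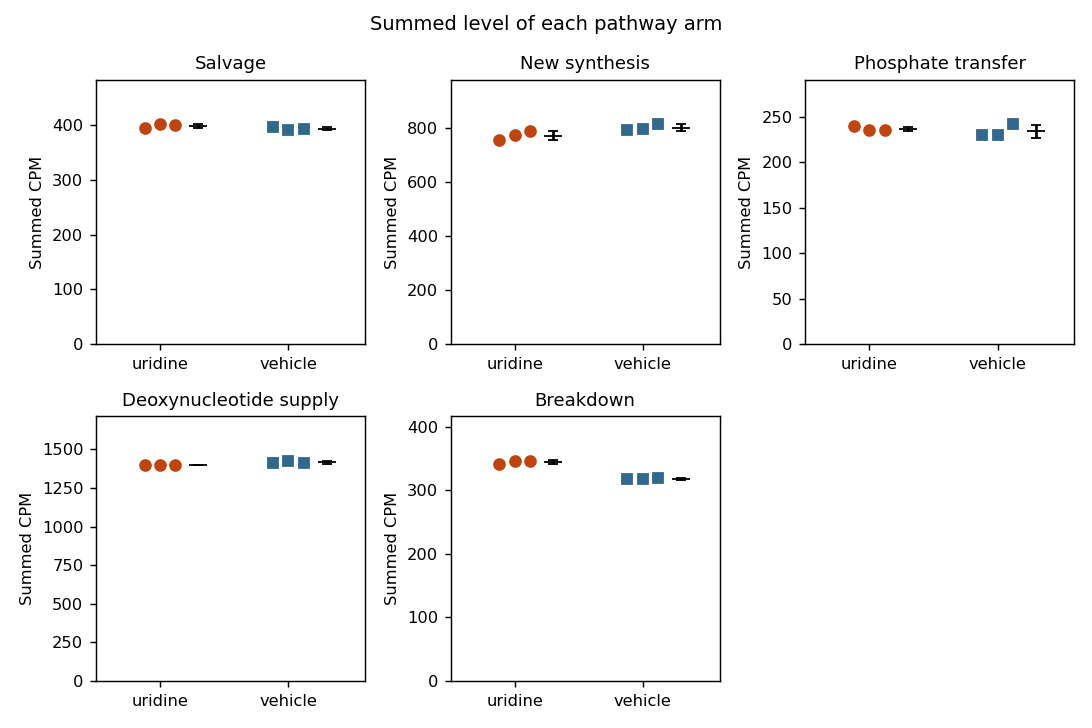
Summed CPM of the genes of each role in every library, uridine (circles) and vehicle (squares), with mean ± SD (n = 3 each) and axes from 0. Breakdown sums were 341 to 347 CPM with uridine and 317 to 319 CPM with vehicle, and the sums of salvage and of phosphate transfer overlapped.

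Summed by role, breakdown stood at 341 to 347 CPM in uridine libraries and 317 to 319 CPM in vehicle libraries. Its sums were also apart in TPM, at 375 to 392 with uridine and 349 to 359 with vehicle. Salvage stood at 395 to 402 CPM with uridine and 392 to 396 CPM with vehicle, which overlapped. Deoxynucleotide supply was apart in CPM, at 1397 to 1401 with uridine and 1410.0 to 1428 with vehicle, but overlapped in TPM, at 1429 to 1452 with uridine and 1426 to 1431 with vehicle. The sum over all 38 genes was 3130 to 3165 CPM with uridine and 3144 to 3181 CPM with vehicle. These sums overlapped.

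A further 23 genes next to the pathway were counted, of which 17 were tested, 2 rose and 2 fell. The share called was 23.5%, beside 17.3% of all tested genes. Their calls are given from the main fit alone, and the part of the length trend in them was not tested. *Dnph1*, which splits modified deoxynucleotides, had 56.8, 56.1 and 53.03 CPM with uridine, against 50.7, 49.7 and 48.0 CPM with vehicle. Its groups were apart, with a log2 change of 0.16 ± 0.056 (adjusted p = 0.036). *Ak3*, a mitochondrial kinase of AMP that uses GTP, averaged 95.04 ± 2.34 CPM with uridine and 87.5 ± 2.38 CPM with vehicle (log2 change 0.12 ± 0.042, adjusted p = 0.0389), and 22.9% of its exon bases are shared with genes on the opposite strand.

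*Samhd1*, which degrades dNTPs, had 139, 140.4 and 146 CPM with uridine, against 153, 147 and 157 CPM with vehicle. It was lower in all 3 uridine libraries, with a log2 change of -0.10 ± 0.034 (adjusted p = 0.0241). *Gda*, guanine deaminase, an enzyme of purine and not of pyrimidine breakdown, averaged 20.3 ± 0.672 CPM with uridine and 45.3 ± 2.42 CPM with vehicle (log2 change -1.16 ± 0.073, adjusted p = 4.8e-22). Among the genes not called were *Shmt1*, *Shmt2*, *Mthfd1* and *Mthfd2*, enzymes of folate metabolism, with log2 changes between -0.053 and -0.0036. *Uprt*, a homologue of enzymes that salvage uracil in other organisms, had a log2 change of -0.20 (adjusted p = 0.16), and *Nt5e*, the nucleotidase of the cell surface, had 0.22 ± 0.081 (adjusted p = 0.0545).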

How the data were processed

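A single table of gene counts and gene lengths for all 6 libraries, deposited by the authors, was used without change. Poly-A mRNA was sequenced as paired reads of 150 bases, per the labels' protocols. Per the submitters' processing notes, HISAT2 2.0.5 and mm10 were used. How reads were counted (program, annotation release, strand, reads with several positions) is not given in the sources used here. Columns were matched to samples by the sample descriptions.

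Genes passing filterByExpr (14706) were scaled with TMM factors and tested with edgeR 4.0.16 (quasi-likelihood, robust, R 4.3.3), with treatment as the only term and Benjamini-Hochberg adjustment over all of them. A gene was called at an adjusted p under 0.05. Log2 fold changes are uridine over vehicle, and each SE is the fold change over the root of the F statistic. CPM values carry the TMM factors, and TPM was computed from the counts and the deposited gene lengths. For the pyrimidine genes these lengths equal all annotated exon bases, except for *Nme4* and *Nt5c2*. The fit was tested on simulated data. Chi-square per gene between libraries of 1 group was 2.28 to 2.52, above sampling noise, and all 6 were kept as separate samples. Shared exon bases are from GENCODE vM21, and upstream sequences from RefSeq (GRCm38.p6).

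Alternatives were DESeq2 size factors, library totals alone, limma-voom (limma 3.58.1), the Wald test of DESeq2 1.42.0, no count filter, a mean of at least 50 counts, the replicate number as a block, a loess trend on gene length removed per library (span 0.5), the block with that trend removed, and each library left out. Per-library values are given for each called gene and for *Uck1*, *Uck2*, *Cda*, *Upp1*, *Dhodh*, *Umps*, *Ctps*, *Tk1*, *Tyms* and *Rrm1*; any other gene given with values was chosen after these had been seen, apart from called genes of the neighbouring list and the 4 smallest p-values of each context list. The members and the other gene lists were chosen with earlier results of these data known.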

Additional observations from a re-analysis of the deposited data

How the results depend on the processing

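The counts of pyrimidine genes called were 2 to 3 higher and 2 to 4 lower over the 15 alternatives, and all genes called numbered 2060 to 2594. Replicate numbers did not pair the samples (correlations of same-numbered libraries -0.015, 0.027 and -0.014). With the replicate block *Uckl1* was no longer called (log2 change 0.20), and no other pyrimidine call changed. *Uckl1* was also lost with the Wald test of DESeq2 and without a count filter, and without any single library but uridine replicate 3. Some genes that were never called changed sign, and the cause was not tested. With the length trend removed, *Uck2* was at 0.016, *Nme4* at -0.018, *Rrm1* at 0.047 and *Tyms* at 0.013, and the values with the replicate block added were the same after rounding. *Dhodh* was at -0.00048 with limma-voom, -2.03e-05 with the Wald test of DESeq2 and -0.00041 without a count filter. With 1 library left out, log2 changes ran from -0.083 to 0.42 for *Cda*, -0.039 to 0.055 for *Dhodh*, -0.014 to 0.044 for *Cmpk1*, -0.41 to 0.18 for *Nme2*, -0.040 to 0.037 for *Nme4*, -0.033 to 0.15 for *Nme7*, -0.077 to 0.031 for *Tk2* and -0.050 to 0.012 for *Tyms*. The 95% intervals of *Cda*, *Nme2*, *Tymp* and *Upp1*, all with few counts, reached past 1.5-fold, and the part of depth in this was not tested.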
